A study of Mus musculus with 9 samples.

Results

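The left ventricular response to a high-fat diet was read from 6 of the 9 libraries of the series, those of wild-type mice given the control vector. ND+AAV-CON mice (3 biological replicates) were under the diet labelled ND, taken here as a normal diet, and HFD+AAV-CON mice (3 biological replicates) were under the diet labelled HFD, taken as a high-fat diet. AAV is adeno-associated virus, the carrier of the control construct that both groups received. The HFD+AAV-BCKDK libraries, from mice under the high-fat diet with a vector named for the kinase BCKDK, entered the fit only to estimate the spread. The labels give neither strain, sex, age, diet composition and duration nor the dose and promoter of the vector. Messenger RNA of the whole ventricular piece was sequenced, and only rows with Ensembl gene identifiers were kept. Of 22036 such genes, 14160 had enough reads to be tested. The libraries are written ND 1 to ND 3 and HFD 1 to HFD 3, and the numbers were not taken to pair the mice.

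The left ventricle is built mostly by mass from cardiomyocytes, which hold the contractile proteins and most mitochondria, but fibroblasts, endothelial cells, pericytes and macrophages outnumber them. Secreted and membrane proteins of all these cells fold in the endoplasmic reticulum (ER), where chaperones and disulfide isomerases assist. When unfolded proteins build up there, the unfolded protein response raises those helpers through the factors ATF6, XBP1 and ATF4. Bulk RNA averages over the tissue, so fewer cells of a type and less RNA per cell cannot be told apart.

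Annotated genes held between 34265273 and 43993009 counts per library. The first principal component of log2 CPM (counts scaled to library size and composition) carried 72.4% of the variance over the 6 libraries and separated the diets. Mitochondrially encoded transcripts took 42.1% to 45.7% of annotated counts under the normal diet and 26.1%, 39.9% and 33.2% in HFD 1, 2 and 3. HFD 3 stood apart. It lay between HFD 1 and HFD 2 in 67.4% of genes whose average log2 CPM reached 1, and in 92.5% of those that rose and 82.5% of those that fell at least 2-fold. The ND libraries lay between their 2 partners in 30.5% to 36.8% of genes, and in 16.1% to 61.0% of those that rose and 28.9% to 36.0% of those that fell at least 2-fold. A weighted sum of 0.59 times HFD 1 and 0.41 times HFD 2 left a chi-square per gene of 9.28 against HFD 3. Sums of the 2 partners with weights fitted for each library left 39.3 to 65.8 for the ND libraries. For HFD 1 and HFD 2 they left 40.1 and 42.7, but gave 1 partner a negative weight (-0.64 and -1.28). Those 2 values are therefore not a like comparison. Whether HFD 3 came from a mouse of its own is not settled by these values, so the counts of calls for markers, lists and symbol groups are given with and without it.

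Markers of several cell types moved as well, and the number of members called is given with all libraries first. These counts are to be read against all tested genes, of which 22.7% were called higher and 20.6% lower. Without HFD 3 the shares were 16.2% and 12%, and with total-count scaling 42.3% and 6.6%. Summed cardiomyocyte markers stood at 30958 to 32344 CPM under the normal diet and 16512 to 26004 CPM under the high-fat diet (8 of 10 lower, 1 without HFD 3 and 5 with total-count scaling). Endothelial markers stood at 1926 to 2035 and 1007 to 1477 CPM (7 of 10 lower, 5 without HFD 3 and 4 with total-count scaling, where 1 was higher), and pericyte and smooth muscle markers at 1497 to 1585 and 922 to 1247 CPM (4 of 10 lower, 4 without HFD 3 and 2 with total-count scaling, where 2 were higher). The median change of the pericyte and smooth muscle markers was only -0.088 on the log2 scale, and 0.31 with total-count scaling. Erythroid markers stood at 1497 to 1676 and 471 to 916 CPM (6 of 6 lower, 6 without HFD 3 and 5 with total-count scaling). Fibroblast markers stood at 2474 to 2573 and 3305 to 5622 CPM (7 of 10 higher, 5 without HFD 3 and 10 with total-count scaling), macrophage and monocyte markers at 653 to 913 and 1768 to 2911 CPM (9 of 10 higher, 9 without HFD 3 and 10 with total-count scaling), and T and NK cell markers at 2.51 to 38.7 and 95.3 to 166 CPM (7 of 9 higher, 5 without HFD 3 and 7 with total-count scaling). The fibroblast sum holds the matrix genes Postn, with means of 60.7 CPM in ND and 693.5 CPM in HFD, and Col3a1, with 147.8 and 723.4 CPM. Changes of the fibroblast markers ran from 0.033 to 3.51 on the log2 scale, with a median of 0.61. More fibroblasts and more matrix RNA per cell cannot be told apart here. B and plasma cell markers overlapped between the diets, at 15.2 to 209.5 and 87.4 to 249 CPM, and ND 3 held the highest T, NK and B cell sums of its group. Atrial markers stood at 109 to 232 and 301 to 1445 CPM (1 of 4 higher, Nppa, and 1 lower, Stard10). Adipocyte markers summed to at most 1.03 CPM in every library. Neutrophil markers stood at 2.87 to 4.32 and 12.3 to 15.5 CPM (2 of 6 higher, Csf3r and Mmp8), with Mpo and Ly6g at 3 counts or fewer in each library. Skeletal muscle markers, of which Ckm and Acta1 are also made by the heart, stood at 1966 to 2613 and 1347 to 1596 CPM (1 of 5 lower), and the skeletal myosins Myh1, Myh2 and Myh4 held at most 3 counts in each. The part of these markers in the gene changes below was not tested.

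The diet moved a large share of the transcriptome. Of 14160 genes, 6134 were called at an adjusted p under 0.05 (43.3%), 3215 higher (22.7%) and 2919 lower (20.6%) in HFD hearts. Without HFD 3, of 14325 genes tested, 2326 (16.2%) rose and 1724 (12%) fell. Falls numbered 1857 without ND 2, and falls of at least 2-fold numbered 278 without HFD 1 and 964 without HFD 2. Of the 6134 calls, 3651 kept their direction and call whichever of the 6 libraries was left out. The sizes were uneven: 1481 genes rose at least 2-fold (10.5%) and 505 fell at least 2-fold (3.57%), against 1236 and 380 without HFD 3. At least 4-fold, 647 rose and 71 fell, and at least 8-fold, 210 rose and 18 fell. The median change was 0.90 on the log2 scale among genes that rose and -0.62 among genes that fell. In 7827 genes (55.3%) no HFD library overlapped an ND library.

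The direction split depended on the scaling. TMM factors, which assume that most genes do not change, were 0.91 to 0.96 in ND and 1.42, 1.03 and 1.22 in HFD 1, 2 and 3. Scaling to the total count instead moved the median of all genes from 0.00 to 0.40 on the log2 scale, and 5986 genes then rose and 934 fell, so that 86.5% of calls were higher where 52.4% were with TMM factors. All 3215 rises stood under both scalings, 930 of the 2919 falls stood, and 541 called genes changed sign. Because total-count scaling moved the median gene upward, it could take away falls but hardly rises. That all rises stood is therefore no test of them. The background under total-count scaling is thus 42.3% higher and 6.6% lower. A fall given below is therefore a fall relative to the median gene, and the genes whose call is lost with total-count scaling are named as such.

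**Figure D1:**
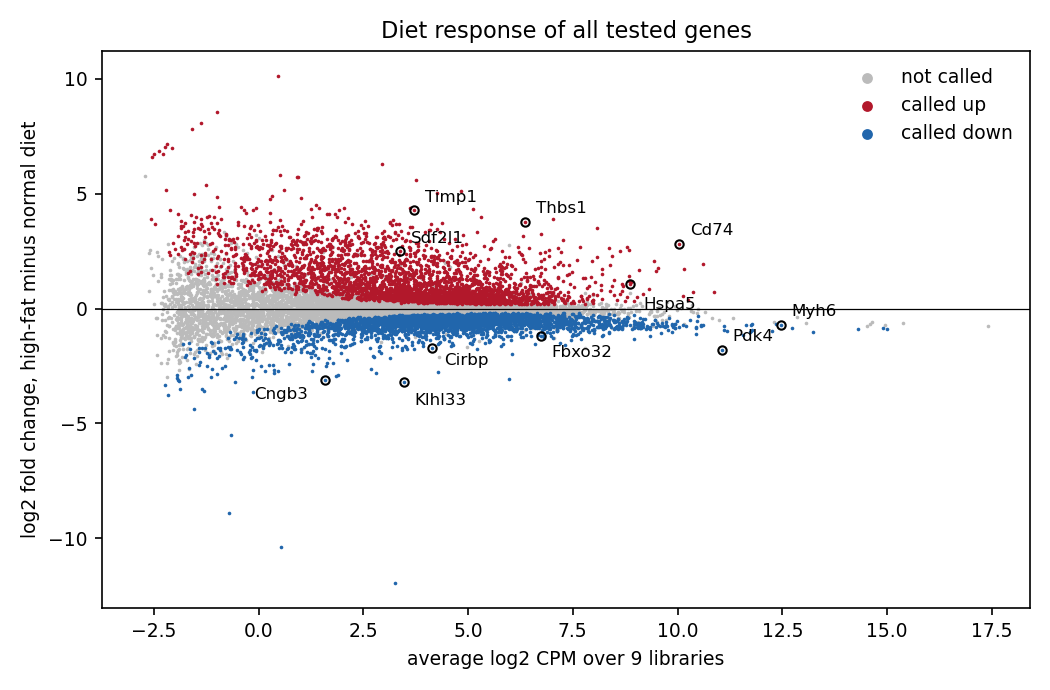
Each point is 1 of 14160 tested genes, with its average log2 CPM over the 9 libraries of the fit on the x axis and its log2 fold change, high-fat minus normal diet, on the y axis. Red points were called higher (3215), blue points lower (2919), grey points were not called and black rings mark 11 genes named by symbol; the rises reach further from 0 than most falls, and the falls crowd at the right among abundant genes.

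Falls were called more often among abundant genes. In the lowest decile of genes by average level, 13.4% rose and 5.51% fell, and in the highest decile 18.1% rose and 41.3% fell. The share of genes that fell in each decile in between ran from 11.3% to 29.7%, and was as high as or higher than in the decile before at each step. By summed exon length, 16.9% rose and 26.9% fell in the shortest decile, and 22.2% rose and 17.3% fell in the longest. Among nuclear chromosomes the share that rose ran from 15.2% (chromosome 18) to 26.6% (chromosome 19) and the share that fell from 18.6% (chromosome 11) to 23.3% (chromosome 3). These shares are given as descriptions, with no test.

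A few very abundant genes lost share of the reads and many less abundant ones gained it. The 13 mitochondrially encoded genes took 43.7% ± 1.82 (SD, n = 3) of tested counts under the normal diet and 33.1% ± 6.90 under the high-fat diet. The 2914 nuclear genes called lower took 27.0% ± 0.88 and 21.6% ± 1.45, and the 3215 genes called higher took 6.97% ± 0.60 and 18.2% ± 5.66. HFD 1 gave 23.8% of its counts to the genes called higher, HFD 2 12.5% and HFD 3 18.2%, against 6.53% to 7.65% in the ND libraries. The largest losses in mean CPM were the respiratory complex subunits mt-Nd1, mt-Co3, mt-Nd5 and mt-Nd6, the calcium pump Atp2a2, its inhibitor phospholamban (Pln), the myosin heavy chain Myh6 and the pyruvate dehydrogenase kinase Pdk4. Pln stood at 6189, 6064 and 5908 CPM in ND 1 to 3 and 2162, 4099 and 3011 CPM in HFD 1 to 3, and fell by 0.97 log2 units (SE 0.21, adjusted p = 0.00678). Pdk4 went from 3661, 3369.9 and 3385 CPM to 709, 1351 and 955 CPM and fell by 1.79 log2 units (SE 0.24, adjusted p = 0.000875). HFD 2 was the nearest to the ND libraries for both genes, and the groups did not overlap. Without HFD 3 the changes of mt-Nd1, mt-Co3, mt-Nd5, Atp2a2 and Myh6 were -0.87, -0.82, -0.88, -0.80 and -0.64 on the log2 scale and none of the 5 was called. None was called without ND 1 or without ND 2 either, where they ran from -0.66 to -0.97. The largest gains were Cd74, the chaperone of MHC class II, Ankrd1, a stress protein of the sarcomere, B2m, H2-K1 and H2-D1 of MHC class I, macrophage lysozyme (Lyz2) and the class II chains H2-Eb1 and H2-Aa. The MHC genes share sequence with near copies, so their counts are uncertain. The mean gain of the 8 genes ran from 887 CPM (H2-Aa) to 2196 CPM (Cd74), and each was smaller than the smallest of the 8 losses, that of Pdk4, which dropped by 2467 CPM.

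Proteins that fold others in the ER led the genes that rose. The rule took the 15 genes with the smallest p among those up at least 2-fold with groups that did not overlap, and 7 of them are ER folding genes: Hyou1, Manf, Sdf2l1, Pdia6, Creld2, Hspa5 and the collagen chaperone Serpinh1. These 7 were grouped after their values were seen. Hspa5 (ENSMUSG00000026864, chromosome 2 from 34771970 to 34777547 on the plus strand of mm10) is BiP, the main ER chaperone of the HSP70 class. It stood at 313, 300.4 and 312 CPM in ND 1 to 3 and at 666, 599 and 658 CPM in HFD 1 to 3, and rose by 1.06 log2 units (SE 0.086, adjusted p = 0.000248). Its ATP exchange partner Hyou1 (ENSMUSG00000032115, chromosome 9 from 44379490 to 44392369 on the plus strand) went from 18.5, 19.2 and 20.9 to 57.98, 51.6 and 52.1 CPM and rose by 1.47 log2 units (SE 0.085, adjusted p = 8.02e-05). The 3 HFD libraries lay close together for both genes, which ranking by the smallest p favours. All stood above the ND libraries, as the rule required. Pdia6 (ENSMUSG00000020571, chromosome 12 from 17266545 to 17284770 on the plus strand), a disulfide isomerase, went from 59.9, 64.5 and 66.8 to 161, 136 and 146 CPM and rose by 1.21 log2 units (SE 0.086, adjusted p = 0.00016). Creld2 (ENSMUSG00000023272, chromosome 15 from 88819646 to 88826683 on the plus strand), a secreted ER stress protein, went from 10.96, 9.80 and 13.7 to 50.9, 39.7 and 46.4 CPM and rose by 1.99 log2 units (SE 0.14, adjusted p = 0.00016). Sdf2l1, a partner of BiP, rose by 2.50 (SE 0.17), and Manf, a secreted ER-resident growth factor, by 1.70 (SE 0.11). Serpinh1 (ENSMUSG00000070436, chromosome 7 from 99345376 to 99353239 on the minus strand) went from 129, 135 and 119.9 to 410.5, 459 and 408 CPM and rose by 1.74 log2 units (SE 0.10, adjusted p = 8.02e-05).

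Because these genes rose together, their promoter windows (250 bases before to 50 after the RefSeq start, GRCm38.p6) were searched for the ER stress element, CCAAT, then 9 bases of any kind, then CCACG, on both strands. Of 11010 tested genes matched to a window by symbol, 18 held it (0.163%). Of the 18, rises were called for 9, a fall for 1 and neither for 8, and 7 rose at least 2-fold (0.618% of the 1133 such genes with a window, and 0% of 378 that fell at least 2-fold). Over all tested genes 22.7% were called higher and 20.6% lower. The matches are shown because they set the folding genes beside the genes that hold the same letters and were not called. Of the folding genes above, Sdf2l1 and Serpinh1 held no match, and no window was matched for Hyou1 and Manf. Each is written 5′ to 3′ on the strand that reads CCAAT first, with the fixed letters in capitals.
Hspa5: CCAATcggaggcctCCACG
Pdia6: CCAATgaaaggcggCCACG
Creld2: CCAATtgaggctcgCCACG
Hsp90b1, first match: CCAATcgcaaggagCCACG
Hsp90b1, second match: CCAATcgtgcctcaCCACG
Calr: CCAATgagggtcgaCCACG
Dnajc3: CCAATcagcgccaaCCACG
Derl3: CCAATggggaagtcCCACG
Syvn1: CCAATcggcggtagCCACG
Canx: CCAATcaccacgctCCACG
Acacb: CCAATagccttgccCCACG
Pan2: CCAATcagcgggggCCACG
Adcy3: CCAATtcggcgtttCCACG
Spats2l: CCAATtctgttcccCCACG
Hnrnpa3: CCAATggcgagagcCCACG
Zfp57: CCAATgcctgaatgCCACG
Xlr3a and Xlr3b: CCAATgaaatgaagCCACG
The 9 genes that rose all serve the ER: Hspa5, Pdia6, Creld2, the HSP90 chaperone Hsp90b1 (up by 1.23 (SE 0.10)), the lectin chaperones calreticulin (Calr, up by 1.17 (SE 0.10)) and calnexin (Canx, up by 0.21 (SE 0.075)), the co-chaperone Dnajc3 (up by 1.03 (SE 0.11)), and Derl3 (up by 2.98 (SE 0.81)) and Syvn1 (up by 0.71 (SE 0.081)) of ER-associated degradation. Acacb, which makes malonyl-CoA at the mitochondrial surface, fell by 0.74 (SE 0.20). Pan2 (0.046 (SE 0.12, adjusted p = 0.786)) and Adcy3 (0.24 (SE 0.16, adjusted p = 0.238)) were not called. Nor were Spats2l (0.40 (SE 0.16, adjusted p = 0.0625)), Hnrnpa3 (-0.41 (SE 0.47, adjusted p = 0.503)), Zfp57 (0.38 (SE 0.30, adjusted p = 0.322)) and the near copies Xlr3a (0.62 (SE 0.54, adjusted p = 0.379)) and Xlr3b (1.13 (SE 0.56, adjusted p = 0.127)), whose counts are uncertain. With total-count scaling Adcy3 (0.66), Spats2l (0.80) and Xlr3b (1.60) were called higher, and Spats2l was also called by DESeq2 (0.41) and limma-voom (0.42) and without ND 3 (0.54). Alg12 and Creld2 are divergent neighbours that share 1 match. Alg12, an N-glycosylation enzyme that also serves the ER, was not called (0.028 (SE 0.21, adjusted p = 0.924)). The call of Canx was lost with any 1 library left out (0.17 to 0.24), that of Derl3 without HFD 1 (2.51) or ND 1 (2.65), and that of Acacb without HFD 3 (-0.71). A match is a description of letters and not a site in use.

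The whole windows of Pdia6 and Creld2 follow, with the element in capitals, to show where it sits against the start, which is 50 bases before the right end. The first base of the match is 98 bases before the start in Pdia6 and 126 before it in Creld2, where the element runs on the opposite strand.
Pdia6, chr12:17266339-17266638, plus strand: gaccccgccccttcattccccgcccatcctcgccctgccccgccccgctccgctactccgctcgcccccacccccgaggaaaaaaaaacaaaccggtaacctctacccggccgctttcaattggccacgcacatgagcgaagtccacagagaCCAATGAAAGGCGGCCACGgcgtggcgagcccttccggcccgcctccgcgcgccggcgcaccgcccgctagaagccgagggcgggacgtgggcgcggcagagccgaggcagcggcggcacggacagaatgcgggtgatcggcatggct
Creld2, chr15:88819396-88819695, plus strand: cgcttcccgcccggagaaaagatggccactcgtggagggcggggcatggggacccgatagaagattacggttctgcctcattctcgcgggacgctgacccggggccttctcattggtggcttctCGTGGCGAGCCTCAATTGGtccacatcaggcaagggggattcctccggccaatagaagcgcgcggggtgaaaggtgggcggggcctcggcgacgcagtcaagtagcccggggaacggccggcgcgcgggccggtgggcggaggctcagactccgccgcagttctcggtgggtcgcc

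Other short motifs were counted in the same windows, on both strands. The interferon-stimulated response element (TTTCNNTTT) was in 9.94% of all windows, 18.2% of those of genes up at least 2-fold and 11.4% of those down at least 2-fold. The AP-1 element (TGANTCA) was in 6.42%, 10.9% and 5.82%, and the gamma-activated sequence (TTCNNNGAA) in 8.34%, 11.3% and 8.47%. The NF-kB element (GGGACTTTC) was in 0.454%, 0.971% and 0%. The TATA box (TATAAA) was more frequent in both sets, at 9.30%, 14.3% and 14%, and the NRF1 element (GCGCATGCG) less frequent in both, at 3.79%, 1.06% and 0.794%. The metal response element (TGCGCNCG) was also less frequent in both, at 11.3%, 7.41% and 5.56%, as was the cyclic AMP response element (TGACGTCA), at 3.37%, 1.94% and 2.38%. The heat shock element (GAANNTTC) stood in 7.05%, 9.44% and 6.61%, the E-box of MYC and clock factors (CACGTG) in 11.4%, 8.65% and 10.3%, the TEAD element (GGAATGT) in 3.41%, 2.91% and 3.70%, and the plain CCAAT box, which the ER stress element contains, in 42.6%, 41.5% and 50.3%. The CEBP-ATF composite element (TGATGCAAT) and the estrogen-related receptor element (TCAAGGTCA) stood in 14 and 34 windows in all. The windows of Ifit1, an interferon-induced RNA-binding protein, and Anxa2, a membrane-binding annexin, are shown since they are the genes with the smallest p that hold the first and second of these motifs, in capitals.
Ifit1, chr19:34640639-34640938, plus strand: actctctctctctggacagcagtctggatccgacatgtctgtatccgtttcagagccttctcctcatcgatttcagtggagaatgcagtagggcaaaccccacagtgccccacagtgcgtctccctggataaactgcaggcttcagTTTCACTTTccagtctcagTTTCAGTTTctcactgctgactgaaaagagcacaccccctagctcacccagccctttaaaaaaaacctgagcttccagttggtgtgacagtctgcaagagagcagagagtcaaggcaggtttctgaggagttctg
Anxa2, chr9:69453433-69453732, plus strand: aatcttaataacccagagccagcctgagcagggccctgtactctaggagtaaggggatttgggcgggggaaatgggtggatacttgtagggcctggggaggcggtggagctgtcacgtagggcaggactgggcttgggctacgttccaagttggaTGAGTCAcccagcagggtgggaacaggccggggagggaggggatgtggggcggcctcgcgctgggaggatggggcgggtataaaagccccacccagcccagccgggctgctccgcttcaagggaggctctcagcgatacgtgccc
Ifit1 holds 2 matches, and stood at 8.99, 9.85 and 9.60 CPM in ND and 34.7, 25.95 and 33.6 CPM in HFD libraries, a rise of 1.73 log2 units (SE 0.13, adjusted p = 0.000206). Anxa2 went from 82.2, 78.998 and 80.97 to 179, 156 and 175 CPM and rose by 1.07 log2 units (SE 0.078, adjusted p = 0.00016). In each gene all HFD libraries were above all ND libraries, as the rule for the rises with the smallest p required.

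**Figure D2:**
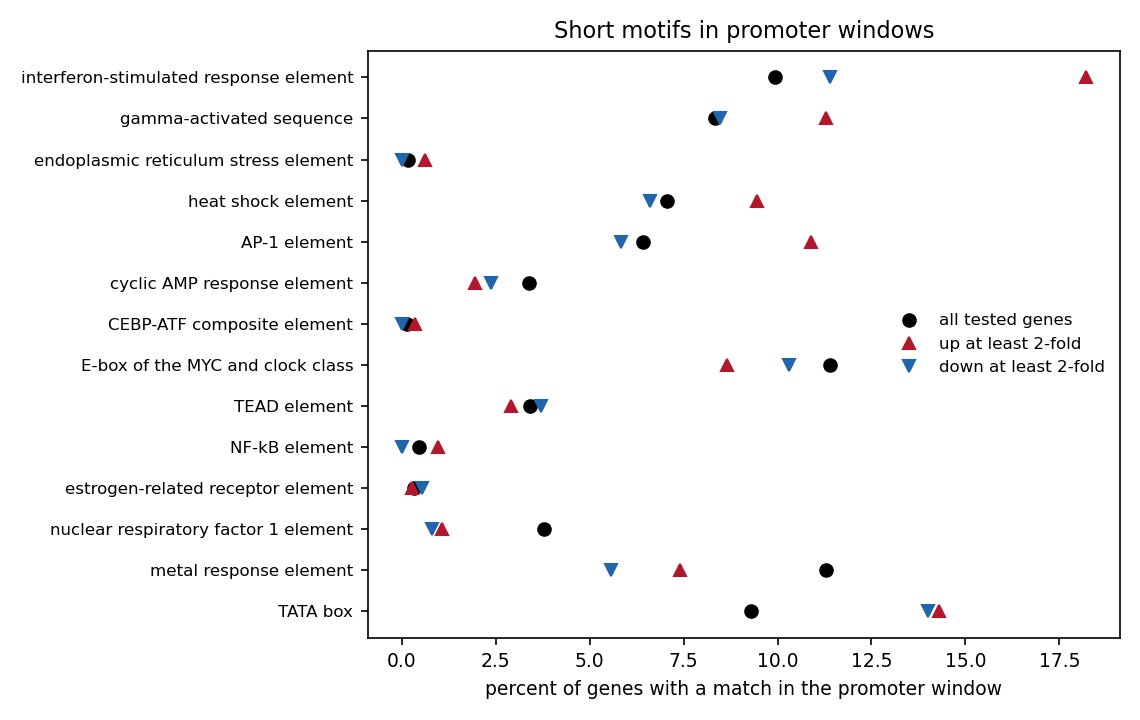
For each motif on the y axis, the x axis gives the percent of genes with a match in the promoter window among all 11010 genes (black circles), genes up at least 2-fold (red triangles) and genes down at least 2-fold (blue triangles). The interferon element stands at 18.2% in genes that rose against 9.94% in all, and the NRF1 element at 1.06% against 3.79%.

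Other genes with the smallest p among rises included secreted and stress proteins. Thbs1 (ENSMUSG00000040152, chromosome 2 from 118111876 to 118127133 on the plus strand), a matricellular regulator of TGF-beta, stood at 16.6, 13.5 and 13.8 CPM in ND and 228, 174 and 204 CPM in HFD libraries and rose by 3.79 log2 units (SE 0.21, adjusted p = 8.02e-05). Tnfrsf12a, the receptor of the cytokine TWEAK, rose by 1.86 (SE 0.12), and P4ha1, which hydroxylates collagen prolines in the ER, by 1.78 (SE 0.14). Mthfd2, the mitochondrial folate enzyme scarce in most adult tissue, went from 2.16, 2.02 and 2.90 to 18.5, 11.9 and 15.2 CPM and rose by 2.68 log2 units (SE 0.20, adjusted p = 0.00016). Tmsb10, an actin-binding thymosin, went from 13.4, 13.01 and 14.5 to 31.6, 31.8 and 30.4 CPM and rose by 1.20 log2 units (SE 0.095, adjusted p = 0.000219). Every HFD library exceeded every ND library for each of these genes, as the rule that named them required.

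Several of the genes that fell with the smallest p regulate transcription or protein turnover. Cirbp (ENSMUSG00000045193, chromosome 10 from 80165985 to 80172786 on the plus strand), the cold-inducible RNA-binding protein, stood at 32.4, 30.6 and 30.8 CPM in ND 1 to 3 and 8.89, 9.91 and 9.85 CPM in HFD 1 to 3, and fell by 1.71 log2 units (SE 0.10, adjusted p = 9.15e-05). Hdac9 (ENSMUSG00000004698, chromosome 12 from 34047580 to 34917095 on the minus strand), a class IIa histone deacetylase that binds MEF2, went from 25.6, 23.1 and 25.9 to 10.4, 8.78 and 10.97 CPM and fell by 1.31 log2 units (SE 0.10, adjusted p = 0.000214). The HFD libraries lay close together for both, which ranking by the smallest p favours. Prox1 (ENSMUSG00000010175, chromosome 1 from 190118035 to 190170714 on the minus strand), a homeobox factor of muscle and lymphatic endothelium, went from 41.96, 37.3 and 32.4 to 10.2, 13.5 and 12.99 CPM and fell by 1.61 log2 units (SE 0.14, adjusted p = 0.000334). Dach1, a transcription cofactor of the endothelium and other tissues, fell by 1.69 (SE 0.12), and Gadd45a, a stress-induced growth arrest gene, by 1.74 (SE 0.18). Fbxo32 (ENSMUSG00000022358, chromosome 15 from 58175879 to 58214932 on the minus strand), the muscle ubiquitin ligase atrogin-1, went from 145, 167 and 148 to 58.2, 77.1 and 64.4 CPM and fell by 1.21 log2 units (SE 0.11, adjusted p = 0.000346). Pik3ip1, a negative regulator of PI3-kinase, went from 68.4, 67.3 and 69.6 to 21.3, 28.8 and 23.3 CPM and fell by 1.49 log2 units (SE 0.14, adjusted p = 0.000346). Klhl33, of the kelch family of ubiquitin ligase adaptors, went from 26.9, 23.1 and 23.03 to 1.72, 4.17 and 2.29 CPM. Cngb3, a subunit of cyclic nucleotide-gated channels, went from 6.94, 6.56 and 5.20 to 0.561, 0.888 and 0.739 CPM. The rest of the 15 were Tmem41a, Fam214a, Dixdc1, Prrg1, Ehhadh and Rit1, with falls of 1.66, 1.31, 1.67, 1.34, 2.74 and 1.17 on the log2 scale.

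**Figure D3:**
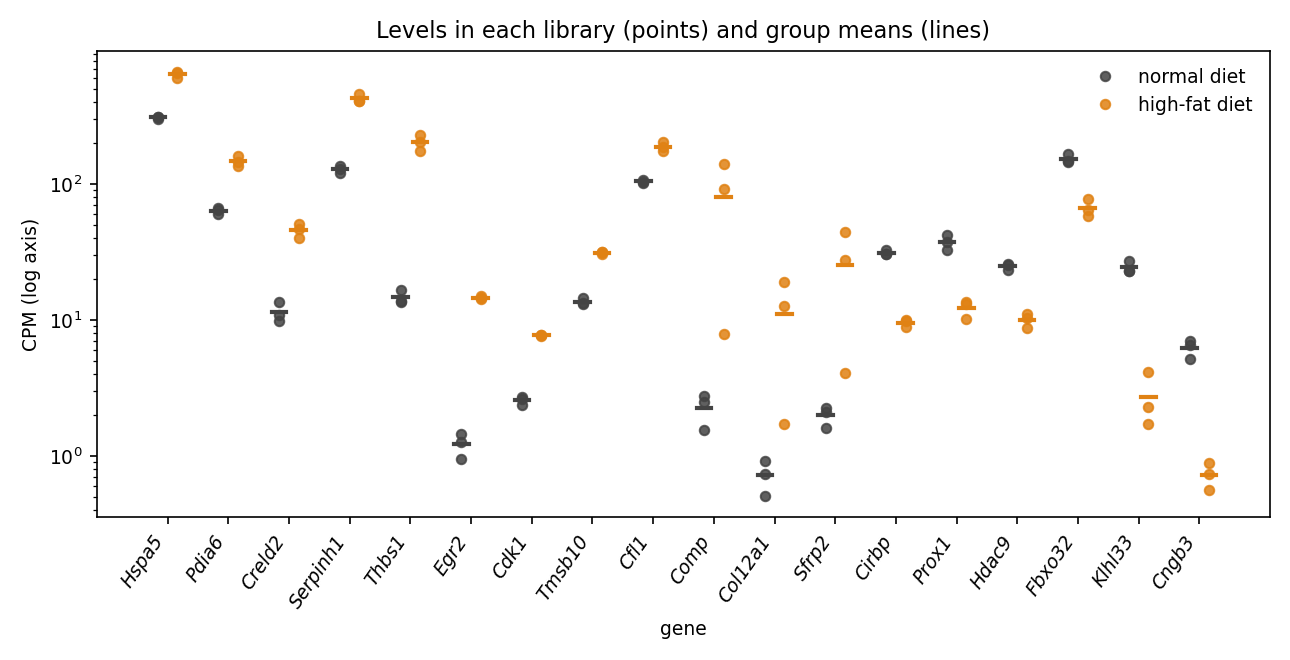
Points are the CPM of each library on a log axis and short lines the group means, for 18 genes named in the text (grey, normal diet; orange, high-fat diet; 3 libraries each). Hspa5, Egr2, Cdk1 and Cirbp are tight within the high-fat diet, whereas Comp, Col12a1 and Sfrp2 spread over more than a 10-fold range there.

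Lists of genes were then counted against the background of 22.7% higher and 20.6% lower. Brackets after a count give the same without HFD 3 and with total-count scaling, to be read against 16.2% and 12%, and 42.3% and 6.6%. A count near the background is no result about its list. Of disulfide isomerases and redox folding genes 15 of 33 rose and 4 fell (12 and 0 without HFD 3, 22 and 0 with total-count scaling), with Pdia4 up by 1.90 (SE 0.16) and Pdia3 by 1.35 (SE 0.12). Of ER translocation and COPII/COPI transport genes 24 of 57 rose and 2 fell (16 and 0 without HFD 3, 43 and 0 with total-count scaling), among them the coat subunit Sec23b (0.86) and the translocon pore Sec61a1 (0.78). Of N-glycosylation genes 17 of 40 rose and 3 fell (12 and 1 without HFD 3, 23 and 0 with total-count scaling), with the oligosaccharyltransferase subunit Rpn1 up by 0.66 (SE 0.069) and the trimming glucosidase Ganab by 0.60 (SE 0.078). Their median changes were 0.25, 0.15 and 0.21 on the log2 scale, against 0.00 over all genes.

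Counts for the machinery that makes protein turned on the scaling. Of ribosome biogenesis genes 9 of 45 rose and 1 fell (5 and 1 without HFD 3, 32 and 0 with total-count scaling), below the background in both directions with TMM factors and above it for rises with total-count scaling, with the helicase Ddx21 at 0.44 and the snoRNP protein Nop56 at 0.54. Of cytosolic aminoacyl-tRNA synthetases 6 of 23 rose and 2 fell (3 and 2 without HFD 3, 11 and 0 with total-count scaling), and the interferon-inducible tryptophanyl enzyme Wars changed most among its called members, up by 0.99 (SE 0.12). Of translation factors 5 of 39 rose and 14 fell (3 and 9 without HFD 3, 17 and 0 with total-count scaling), with a median of -0.12 that became 0.28 with total-count scaling. The helicase Eif4a1 rose by 0.52 (SE 0.072) and Eif1a by 0.64 (SE 0.11).

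Genes of the non-muscle actin cytoskeleton rose more often than those of the other structural lists described here: 44 of 53 rose and 3 fell (43 and 1 without HFD 3, 46 and 1 with total-count scaling), with a median of 0.57. Cofilin (Cfl1), which severs actin filaments, went from 104, 102 and 108 to 203, 173 and 187 CPM and rose by 0.84 log2 units (SE 0.08, adjusted p = 0.000348). Beta-actin (Actb) rose by 1.07 (SE 0.11) and the Arp2/3 subunit Arpc1b by 1.19 (SE 0.13). Of tubulins and microtubule regulators 14 of 36 rose and 3 fell (12 and 0 without HFD 3, 21 and 0 with total-count scaling), with Tubb5 up by 0.92 (SE 0.091) and Tubb6 by 0.78 (SE 0.091). Of intermediate filament and lamina genes 8 of 22 rose and 1 fell (7 and 0 without HFD 3, 15 and 0 with total-count scaling), with vimentin (Vim) up by 1.19 (SE 0.17) and lamin B1 (Lmnb1) by 1.42 (SE 0.16). Of integrins and their activators 15 of 34 rose and 5 fell (14 and 2 without HFD 3, 20 and 2 with total-count scaling); the fibronectin receptor chain Itga5 rose by 1.12 (SE 0.11), and Itgb2 (2.74) and Itgam (2.28) are leukocyte integrins. Of genes listed as YAP/TAZ and SRF-MRTF targets 15 of 39 rose and 5 fell (9 and 4 without HFD 3, 26 and 3 with total-count scaling), with the non-muscle myosin Myh9 up by 1.01 (SE 0.11), Tes by 1.19 (SE 0.15) and Myof by 2.03 (SE 0.29). Actb and Vim are abundant in macrophages and fibroblasts, and Itgb2 and Itgam in macrophages. The summed markers of both cell types were higher in these hearts.

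Genes of the membrane scaffold of muscle and endothelium fell more often than they rose with TMM factors, though the median of the list turned positive with total-count scaling. Of caveolae, dystrophin complex and costamere genes 4 of 35 rose and 13 fell (2 and 9 without HFD 3, 12 and 5 with total-count scaling). Cavin2, a caveolar coat protein, fell by 1.15 log2 units (SE 0.16, adjusted p = 0.000978) and caveolin 1 (Cav1) by 0.75 log2 units (SE 0.15, adjusted p = 0.00418). The list's median was -0.18, and it became 0.20 with total-count scaling. Caveolin 1 is most abundant in endothelium, whose markers were lower.

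Members of calcium-binding and lectin families rose more often than they fell. Of annexins 6 of 11 rose and 1 fell (5 and 0 without HFD 3, 8 and 0 with total-count scaling), with Anxa4 up by 1.18 (SE 0.11) and Anxa5 by 0.72 (SE 0.10). Of S100 proteins 4 of 11 rose and 1 fell (3 and 0 without HFD 3, 4 and 0 with total-count scaling), with S100a11 up by 0.96 (SE 0.08), S100a4 by 1.55 (SE 0.21) and S100a6 by 0.66 (SE 0.13). With total-count scaling the S100 rises lay below the background of 42.3%. The median S100 gene stood at -0.19 in HFD 1, against 0.55 in HFD 2 and 0.62 in HFD 3, relative to the ND mean. Of galectins, osteopontin and other secreted lectins 16 of 21 rose and 1 fell (14 and 0 without HFD 3, 18 and 1 with total-count scaling), with a median of 1.87. Within it the collagen receptor Mrc2 rose by 1.38 (SE 0.17), the galectin 3 binding protein Lgals3bp by 1.38 (SE 0.15), and the macrophage lectins Clec4d by 2.97 (SE 0.26) and Clec4n by 1.91 (SE 0.18).

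Genes of extracellular proteolysis and matrix sugars also rose more often than they fell. Of coagulation, fibrinolysis and serpin genes 19 of 31 rose and 4 fell (13 and 3 without HFD 3, 24 and 2 with total-count scaling). The complement C1 inhibitor Serping1 rose by 1.36 (SE 0.20) and the acute-phase serpin Serpina3n, whose product inhibits proteases, by 2.68 (SE 0.42), whereas the tissue factor pathway inhibitor Tfpi fell by 1.24 (SE 0.18). Serpina3n stood at 23.9, 22.2 and 31.6 CPM in ND and 239, 82.5 and 174 CPM in HFD libraries. Of ADAM and ADAMTS proteases 13 of 30 rose and 5 fell (10 and 2 without HFD 3, 17 and 0 with total-count scaling), with the sheddase Adam17 up by 0.87 (SE 0.13), the procollagen peptidase Adamts2 by 1.65 (SE 0.26) and the leukocyte protease Adam8 by 3.31 (SE 0.58). Of glycosaminoglycan and hyaluronan genes 16 of 38 rose and 2 fell (13 and 1 without HFD 3, 24 and 0 with total-count scaling). The hyaluronan synthase Has1 went from 0.301, 0.324 and 0.202 to 2.04, 1.91 and 2.003 CPM and rose by 2.84 log2 units (SE 0.37, adjusted p = 0.000813), the dermatan sulfate epimerase Dse rose by 1.86 (SE 0.26), and the chondroitin polymerising factor Chpf by 0.87 (SE 0.11).

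Of the receptors of phagocytes, 35 of 38 rose and 0 fell (30 and 0 without HFD 3, 36 and 0 with total-count scaling), with a median of 2.04. The Fc receptor Fcgr3 stood at 25.9, 27.7 and 40.97 CPM in ND and 114, 73.2 and 99.2 CPM in HFD libraries and rose by 1.60 log2 units (SE 0.20, adjusted p = 0.000693). Its signalling chain Fcer1g rose by 2.26 (SE 0.29), the CD47 receptor Sirpa by 1.52 (SE 0.18) and Cd300lb by 2.79 (SE 0.30). Macrophage and monocyte markers stood at 653 to 913 and 1768 to 2911 CPM in the same libraries, and their part in these rises was not tested. Of NF-kB and TNF signal regulators 30 of 39 rose and 2 fell (24 and 2 without HFD 3, 34 and 0 with total-count scaling). Tnfaip2 rose by 1.27 (SE 0.12), the adhesion molecule Icam1 by 1.29 (SE 0.17), the NF-kB cofactors Bcl3 by 1.61 (SE 0.16) and Nfkbiz by 2.13 (SE 0.24). Of IL-6 family ligands, receptors and feedback genes 18 of 31 rose and 4 fell (16 and 2 without HFD 3, 24 and 1 with total-count scaling), with the feedback inhibitor Socs3 up by 2.14 (SE 0.28), the factor Stat3 by 0.72 (SE 0.092) and the metalloproteinase inhibitor Timp1 by 4.29 (SE 0.45). Timp1 went from 1.67, 1.92 and 1.59 to 47.04, 19.4 and 34.9 CPM, and HFD 2 held the lowest of the 3 HFD values.

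Lists of growth factors and morphogens lay near the background for rises with TMM factors. Of BMP, activin and GDF genes 11 of 40 rose and 4 fell (9 and 0 without HFD 3, 19 and 1 with total-count scaling), among them the activin chain Inhba (1.93), the follistatin-like proteins Fstl3 (1.01) and Fstl1 (1.39), and Id2 (1.88). Of WNT genes 13 of 45 rose and 4 fell (7 and 3 without HFD 3, 16 and 1 with total-count scaling), and the secreted modulators Dkk3 and Frzb rose by 3.40 (SE 0.47) and 2.11 (SE 0.39), the receptor Fzd1 rose by 1.44 (SE 0.24) and the ligand Wnt5b fell by 1.77 (SE 0.30). Of NOTCH genes 6 of 23 rose and 2 fell (5 and 1 without HFD 3, 11 and 1 with total-count scaling), with Lfng, which glycosylates the receptor, up by 2.09 (SE 0.30), and Notch2 by 1.09 (SE 0.19). Of EGF, FGF, PDGF and VEGF ligands 5 of 32 rose and 8 fell (3 and 6 without HFD 3, 12 and 4 with total-count scaling). Epiregulin (Ereg), a ligand of the EGF receptor, went from 0.164, 0.0540 and 0.0505 to 6.46, 2.91 and 5.36 CPM and rose by 5.75 log2 units (SE 0.49, adjusted p = 0.000294), and Hbegf by 1.10 (SE 0.22), while Fgf9 fell by 1.06 (SE 0.21) and Fgf13, which binds sodium channels, by 0.93 (SE 0.17). Of semaphorins, plexins, ephrins and guidance genes 12 of 52 rose and 10 fell (6 and 9 without HFD 3, 23 and 5 with total-count scaling), with Plxna1 up by 1.05 (SE 0.12) and Sema6a down by 1.02 (SE 0.14). Of MAPK phosphatases and sprouty genes 5 of 23 rose and 1 fell (3 and 0 without HFD 3, 17 and 0 with total-count scaling), with Dusp6, which dephosphorylates ERK, up by 0.70 (SE 0.13).

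Of adrenergic, cyclic AMP and phosphodiesterase genes, also near the background, 15 of 51 rose and 13 fell (13 and 7 without HFD 3, 21 and 5 with total-count scaling). The regulator of G protein signalling Rgs16 rose by 2.84 (SE 0.40) and the inhibitory G protein Gnai2 by 0.47 (SE 0.077), and the muscarinic receptor Chrm2 fell by 1.11 (SE 0.19). Of nuclear receptors and coregulators 9 of 43 rose and 7 fell (8 and 3 without HFD 3, 17 and 3 with total-count scaling), near the background, with the orphan receptor Nr4a3 up by 1.20 (SE 0.15) and the retinoic acid receptor Rara by 0.88 (SE 0.11).

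Lists of small-molecule metabolism were counted too, and held fewer falls with total-count scaling than with TMM factors. A list with both rises and falls is also what the background of 22.7% higher and 20.6% lower gives. The serine, glycine and one-carbon list and the polyamine, proline and arginine list lay near that background. Of serine, glycine and one-carbon enzymes 6 of 25 rose and 7 fell (5 and 7 without HFD 3, 8 and 3 with total-count scaling). The mitochondrial Mthfd2 rose as given above, and serine synthesis Psat1 by 1.13 (SE 0.14), whereas the cytosolic folate dehydrogenase Aldh1l1 fell by 1.78 (SE 0.29) and cystathionine gamma-lyase (Cth) by 2.44 (SE 0.32). Cth stood at 1.56, 2.02 and 2.90 CPM in ND and 0.385, 0.377 and 0.429 CPM in HFD libraries, with no overlap. Of polyamine, proline and arginine enzymes 8 of 25 rose and 6 fell (6 and 5 without HFD 3, 13 and 2 with total-count scaling). Argininosuccinate synthase (Ass1) rose by 2.37 (SE 0.27) and asparagine synthetase (Asns) by 1.29 (SE 0.18), while proline dehydrogenase (Prodh) fell by 1.82 (SE 0.25). Of amino acid transporters 15 of 29 rose and 3 fell (12 and 3 without HFD 3, 18 and 2 with total-count scaling), with Slc3a2, the partner chain of several exchangers, up by 0.83 (SE 0.094), the arginine carrier Slc7a2 by 1.50 (SE 0.23) and the glutamine carrier Slc38a2 by 0.56 (SE 0.089). Of hexosamine and pentose phosphate enzymes 6 of 17 rose and 1 fell (5 and 0 without HFD 3, 12 and 0 with total-count scaling), with Gfpt2, which commits fructose 6-phosphate to hexosamines, up by 1.20 (SE 0.10), Uap1 by 0.56 (SE 0.077), and Pgd and G6pdx of the pentose phosphate route by 0.73 (SE 0.10) and 1.03 (SE 0.17). Of purine and pyrimidine genes 11 of 34 rose and 11 fell (6 and 9 without HFD 3, 19 and 1 with total-count scaling), and the salvage enzymes Pnp and Dck rose by 0.95 (SE 0.12) and 1.26 (SE 0.19) while Adsl of the de novo purine route fell by 0.77 (SE 0.10). Of NAD metabolism genes 10 of 29 rose and 7 fell (9 and 7 without HFD 3, 14 and 4 with total-count scaling), with the ADP-ribosyl cyclase Bst1 up by 2.81 (SE 0.26) and the interferon-inducible Parp14, Parp9 and Parp3 by 1.50 (SE 0.15), 1.35 (SE 0.17) and 0.93 (SE 0.12).

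Energy transfer, iron and membrane lipid genes were counted next. Of creatine and adenylate energy transfer genes 2 of 19 rose and 10 fell (1 and 7 without HFD 3, 5 and 5 with total-count scaling), with a median of -0.47 (-0.089 with total-count scaling). The AMP kinase catalytic subunit Prkaa2 fell by 0.59 (SE 0.10), and Gatm, which makes the creatine precursor, rose by 2.17 (SE 0.44). Of iron and haem genes 5 of 32 rose and 11 fell (2 and 6 without HFD 3, 9 and 5 with total-count scaling): the transferrin receptor Tfrc rose by 0.79 (SE 0.13) and the ferritin light chain Ftl1 by 0.51 (SE 0.10), and the iron exporter Slc40a1 fell by 1.76 (SE 0.32). Erythroid markers fell alongside. Of metallothionein, zinc and copper genes 13 of 24 rose and 1 fell (9 and 0 without HFD 3, 15 and 0 with total-count scaling), with the zinc carrier Slc39a14 up by 0.70 (SE 0.10). Of sphingolipid and ceramide enzymes 14 of 30 rose and 7 fell (11 and 4 without HFD 3, 17 and 2 with total-count scaling), with the serine palmitoyltransferase chain Sptlc2 up by 0.71 (SE 0.086), the ceramide synthase Cers6 by 1.35 (SE 0.17), ceramide kinase (Cerk) by 0.56 (SE 0.066) and sphingosine kinase (Sphk1) by 1.87 (SE 0.27). Of phospholipid genes 11 of 34 rose and 10 fell (8 and 6 without HFD 3, 17 and 4 with total-count scaling), with the lipoprotein-associated phospholipase Pla2g7 up by 2.10 (SE 0.27) and the acyltransferase Lpcat2 by 2.33 (SE 0.32), both abundant in macrophages.

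**Figure D4:**
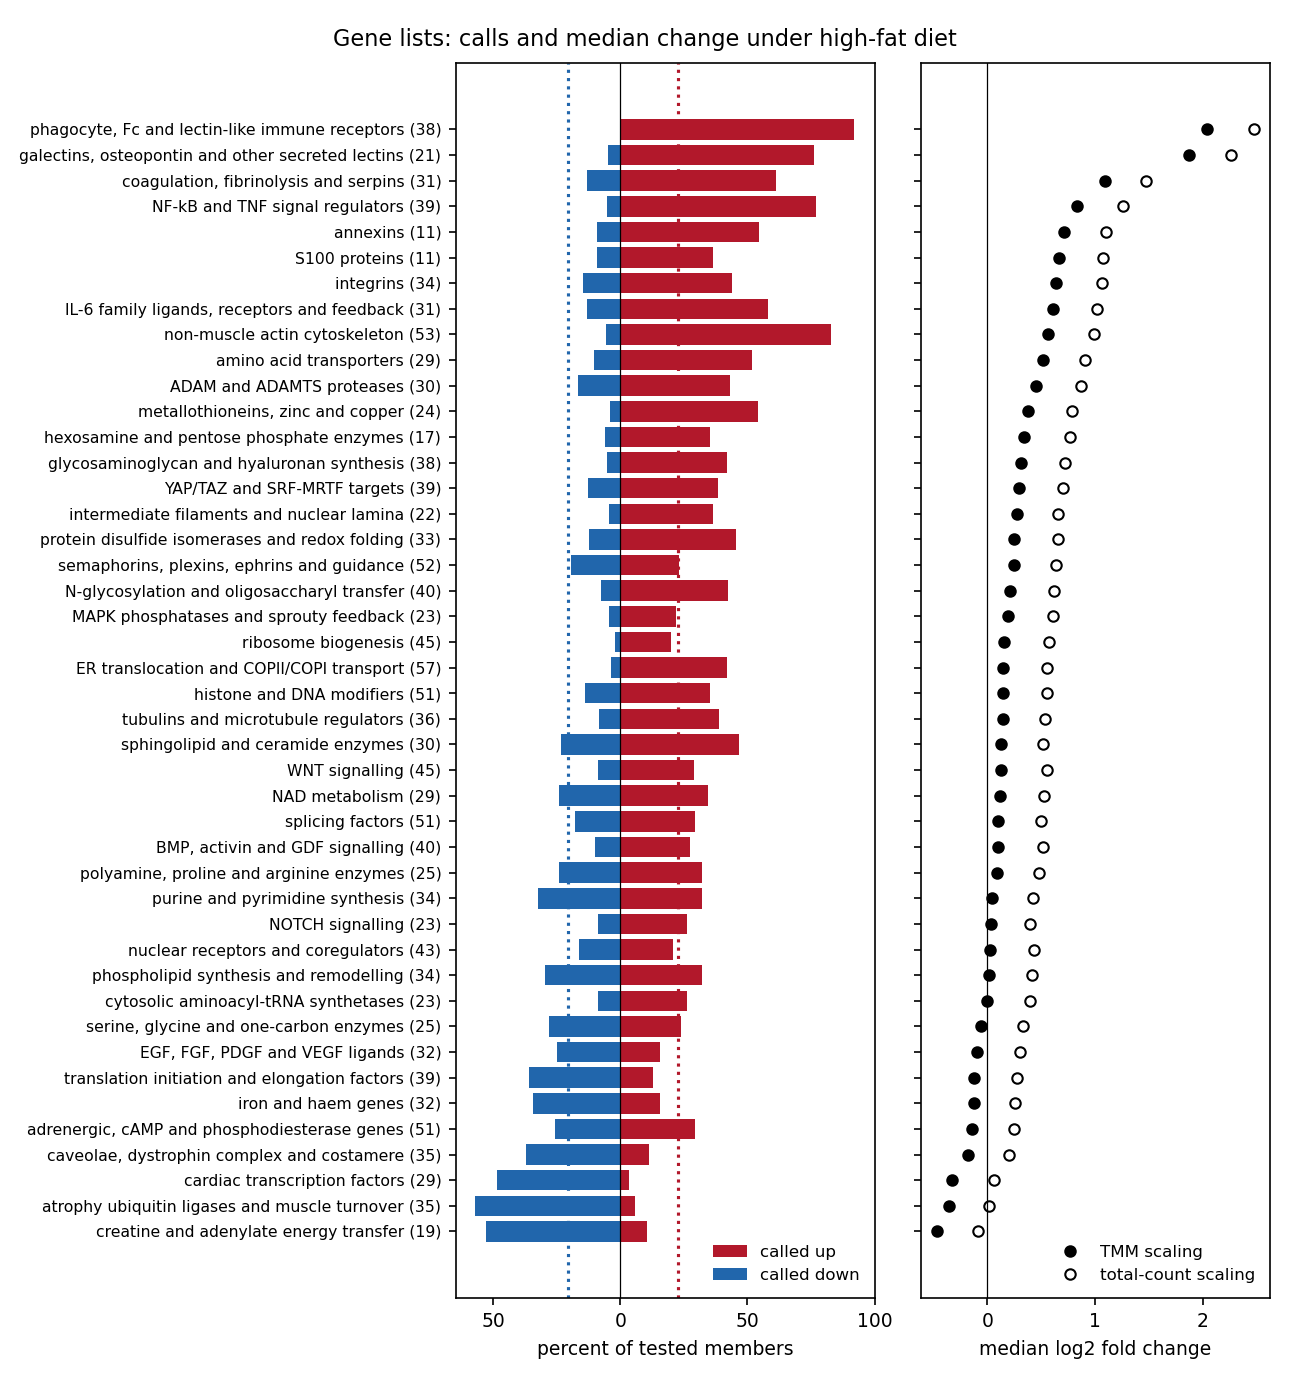
For each list on the y axis (number of tested members in brackets), the left panel gives the percent of members called higher (red, to the right) and lower (blue, to the left), with dotted lines at the shares over all genes (22.7% and 20.6%). The right panel gives the median log2 fold change with TMM factors (filled) and with total-count scaling (open); phagocyte receptors stand at the top and creatine and adenylate genes at the bottom, and open points lie to the right of filled ones in each list.

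Regulators of the cardiomyocyte fell more often than they rose with TMM factors, while the median of both lists described here was above 0 with total-count scaling. Of cardiac transcription factors 1 of 29 rose and 14 fell (0 and 9 without HFD 3, 3 and 5 with total-count scaling), with Prox1 as given above and Gata6 and Meis2 down by 0.73 (SE 0.10) and 0.88 (SE 0.15). The list's median was -0.33 and became 0.061 with total-count scaling. Of ubiquitin ligases and other muscle turnover genes 2 of 35 rose and 20 fell (2 and 12 without HFD 3, 5 and 9 with total-count scaling), with a median of -0.36 that became 0.014 with total-count scaling. Klhl33, Fbxo32 and the muscle-specific Asb18 (down by 1.08 (SE 0.16)) led the falls, and the interferon-induced protease Usp18 rose by 1.12 (SE 0.16). Summed cardiomyocyte markers were lower in the same libraries, and their part in these falls was not tested.

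Splicing factors lay near the background with TMM factors, and with total-count scaling few splicing or chromatin genes were called lower. Of splicing factors 15 of 51 rose and 9 fell (10 and 6 without HFD 3, 36 and 2 with total-count scaling), with Snrnp70 of the U1 particle up by 0.56 (SE 0.082) and the splicing repressor Ptbp1 by 0.54 (SE 0.084). Of histone and DNA modifiers 18 of 51 rose and 7 fell (10 and 4 without HFD 3, 32 and 1 with total-count scaling), with Uhrf1, which guides maintenance methylation, up by 2.06 (SE 0.22) beside the fall of Hdac9. Of long non-coding and imprinted RNAs 2 of 12 rose and 4 fell (2 and 4 without HFD 3, 5 and 2 with total-count scaling), with insulin-like growth factor 2 (Igf2) down by 1.02 (SE 0.27).

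The median of several lists above turned from below to above 0 with total-count scaling, so their split between rises and falls holds only relative to the median gene. For EGF, FGF, PDGF and VEGF ligands it went from -0.10 to 0.30, for adrenergic and cyclic AMP genes from -0.14 to 0.25, for serine, glycine and one-carbon enzymes from -0.061 to 0.33, for iron and haem genes from -0.13 to 0.26 and for long non-coding and imprinted RNAs from -0.29 to 0.10. The median of cytosolic aminoacyl-tRNA synthetases went from near 0 to 0.39.

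A scan over gene symbols used no list: 120 groups of at least 12 tested genes that share the letters of their symbol held 3763 genes. The groups follow letters alone, so a group can hold genes outside the family it is named for. Of the Ifi group, interferon-inducible genes, 15 of 15 rose and 0 fell (15 and 0 without HFD 3, 15 and 0 with total-count scaling), with Ifi203, Ifi211 and Ifi44 up by 1.31 (SE 0.12), 1.62 (SE 0.15) and 1.55 (SE 0.15); members of the Ifi200 cluster are near copies and their counts are uncertain. Of Toll-like receptors (Tlr) 11 of 12 rose and 0 fell (9 and 0 without HFD 3, 12 and 0 with total-count scaling), with Tlr2 up by 2.40 (SE 0.32), Tlr8 by 2.65 (SE 0.37) and Tlr7 by 1.52 (SE 0.24). Of CC chemokines (Ccl) 11 of 18 rose and 1 fell (8 and 1 without HFD 3, 12 and 1 with total-count scaling), with Ccl9 up by 1.27 (SE 0.22). Of the group named for interferon regulatory factors (Irf), not all of which are such factors, 7 of 12 rose and 0 fell (7 and 0 without HFD 3, 9 and 0 with total-count scaling), of matrix metalloproteinases (Mmp) 8 of 15 rose and 0 fell (8 and 0 without HFD 3, 9 and 0 with total-count scaling) and of the kinesin group (Kif) 17 of 35 rose and 4 fell (13 and 2 without HFD 3, 20 and 1 with total-count scaling). At the other end, the lowest medians were those of the complex I subunits (Ndufa, -0.71) and the group named for cytochrome oxidase (Cox, -0.60), -0.37 and -0.24 with total-count scaling. Of Ndufa genes 0 of 14 rose and 11 fell (0 and 1 without HFD 3, 0 and 7 with total-count scaling) and of Cox genes 0 of 25 rose and 16 fell (0 and 3 without HFD 3, 2 and 7 with total-count scaling), so that few of these falls were called without HFD 3. Of mitochondrial ribosomal proteins of the large subunit (Mrpl) 0 of 49 rose and 44 fell (0 and 26 without HFD 3, 0 and 12 with total-count scaling) and of the small subunit (Mrps) 0 of 29 rose and 23 fell (0 and 16 without HFD 3, 0 and 7 with total-count scaling), with Mrps30 down by 0.76 (SE 0.13). Their medians were -0.55 and -0.60, and -0.18 and -0.23 with total-count scaling. The groups named for cytosolic ribosomal proteins differed: of Rpl genes 1 of 50 rose and 6 fell (1 and 1 without HFD 3, 9 and 2 with total-count scaling) and of Rps genes 1 of 43 rose and 8 fell (1 and 2 without HFD 3, 12 and 1 with total-count scaling), although their medians of -0.18 and -0.17 became 0.20 and 0.22 with total-count scaling. The 1 Rps gene that rose was the kinase Rps6ka1 (1.44), not a ribosomal protein. The falls included the kinase Rps6ka5 (-0.87) and the pseudogene Rpl10-ps3 (-1.70). Of peroxins (Pex), which build peroxisomes, 0 of 17 rose and 10 fell (0 and 5 without HFD 3, 1 and 0 with total-count scaling) with a median of -0.39, near 0 with total-count scaling. Of the Asb ubiquitin ligase adaptors 0 of 16 rose and 9 fell (0 and 6 without HFD 3, 1 and 6 with total-count scaling), with Asb5 down by 1.27 (SE 0.15), and of cadherins (Cdh) 0 of 13 rose and 7 fell (0 and 4 without HFD 3, 1 and 2 with total-count scaling), with the glial cadherin Cdh19 down by 1.34 (SE 0.26).

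The 3 HFD libraries responded to different degrees. Over the 1061 genes up at least 2-fold whose average log2 CPM reached 1, the median rise above the ND mean was 2.07 in HFD 1, 1.28 in HFD 2 and 1.81 in HFD 3. Over 342 genes down at least 2-fold it was -1.74, -0.83 and -1.26. In both directions HFD 1 was the farthest from the ND libraries and HFD 2 the nearest.

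**Figure D5:**
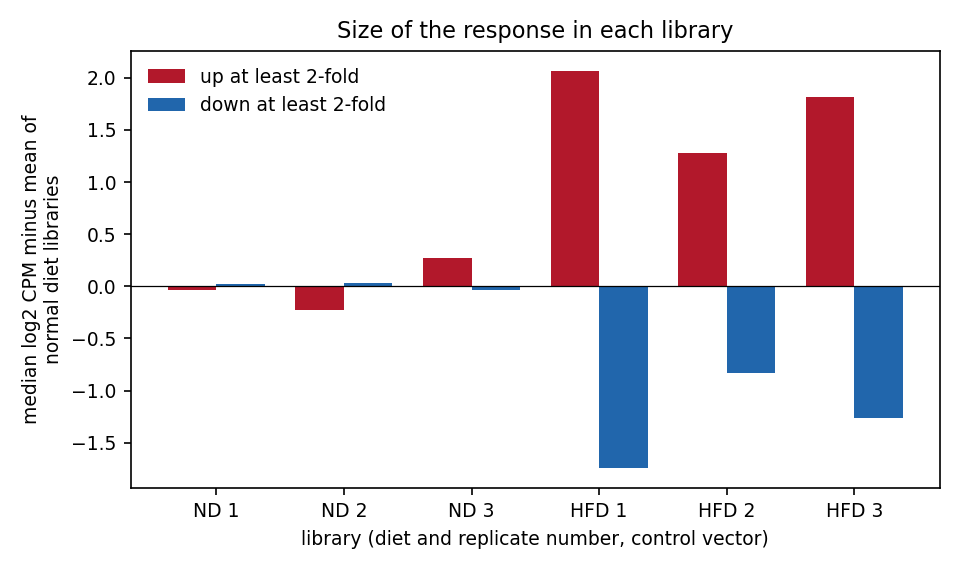
Bars give, for each library on the x axis, the median over genes of log2 CPM minus the mean of the 3 normal diet libraries, for 1061 genes up at least 2-fold (red) and 342 down at least 2-fold (blue). The genes were chosen by this contrast, so only the differences among the 3 high-fat libraries are to be read: HFD 1 lies at 2.07, HFD 3 at 1.81 and HFD 2 at 1.28.

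Some genes rose by the same amount in all 3 HFD libraries and others did not. The smallest spread among rises of at least 2-fold was found for the mitotic kinase Cdk1, at 2.71, 2.62 and 2.37 CPM in ND and 7.75, 7.65 and 7.80 CPM in HFD libraries. Vasn, a TGF-beta trap, Bcl3, Sox9, a chondrogenic and fibroblast factor, and Egr2, an immediate early factor, were among the next. Egr2 stood at 1.26, 0.945 and 1.44 CPM in ND and 14.98, 14.4 and 14.4 CPM in HFD libraries and rose by 3.58 log2 units (SE 0.42, adjusted p = 0.000649). The largest spread was found for the matrix genes Comp, Fmod, Col8a2 and Col12a1, with the WNT modulator Sfrp2 and the adipokine C1qtnf3. Col12a1, a collagen of dense connective tissue, stood at 0.738, 0.918 and 0.505 CPM in ND and 18.9, 1.72 and 12.7 CPM in HFD libraries. Sfrp2 stood at 2.27, 2.11 and 1.62 and 44.5, 4.04 and 27.5 CPM. In both, HFD 2 was above the ND libraries by less than the other HFD libraries, and HFD 1 was the highest. None of these 6 genes of large spread was called by limma-voom. With 3 libraries, of which HFD 3 is not settled as separate, this spread is a description.

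Few genes were near 0 in one group and well counted in the other. A gene was counted where no library of a group held more than 3 counts and every library of the other held at least 20: 3 genes were near 0 under the high-fat diet and 4 under the normal diet. Cyp1a1, the xenobiotic-metabolising P450 induced by the aryl hydrocarbon receptor, held 142, 176 and 163 counts in ND 1 to 3 and 0 in each HFD library. Against a floor of 3 counts per library it was at least 63.6-fold lower. Cyp4f15, another P450, held 49, 62 and 55 counts and then 0, 2 and 2. In the other direction Tff1, a secreted trefoil peptide, held 0 in each ND library and 88, 28 and 61 counts in HFD 1 to 3 (at least 15.2-fold higher). Il1r2, the decoy receptor of interleukin 1, held 0, 0 and 2 counts and then 65, 20 and 43, and Mab21l3 2, 0 and 2 and then 79, 32 and 51. The last was the predicted gene Gm7030.

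Bckdk itself, the kinase that holds back branched-chain amino acid breakdown, stood at 78.6, 70.3 and 70.6 CPM in ND 1 to 3 and 37.1, 64.99 and 49.4 CPM in HFD 1 to 3. It fell by 0.54 log2 units (SE 0.17, adjusted p = 0.03), the exact two-sided permutation p was 0.1, the smallest that 3 against 3 can give, and its call was lost without HFD 1, HFD 3 or any 1 ND library and with total-count scaling.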

How the data were processed

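Left ventricular RNA of 9 libraries was sequenced, and 6 form the comparison. Per the labels' protocols, RNA was extracted with Trizol and libraries were made with a VAHTS mRNA-seq kit. Alignment with HISAT2 2.0.5 and the build mm10 come from the submitters' processing notes, which here name no counting tool, annotation or strand setting, so antisense or overlapping genes are uncertain. The authors deposited raw counts per gene, with no normalization. Rows without an Ensembl identifier (1.02% to 5.80% of counts in the 6 libraries) were left out.

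The tests were run with edgeR 4.0.16 (R 4.3.3): filterByExpr, TMM factors, and a quasi-likelihood fit of 3 groups over 9 libraries, with Benjamini-Hochberg adjustment over 14160 genes at 0.05. Adjusted p-values in the text come from this test; SE is that of the log2 fold change. CPM uses TMM-scaled library sizes, so a CPM is relative to composition as well as depth. Counts between 34265273 and 43993009 per library set the counting error. The p-values and SE rest on a spread estimated over all 9 libraries, and they count HFD 3 as a mouse of its own. Over genes whose average log2 CPM reached 1, the median SD of log2 CPM was 0.12 in ND and 0.17 in HFD libraries. The p-values therefore do not measure the spread of the HFD libraries alone. With the 6 libraries alone 5220 genes were called. Floors of 3 counts cover counting error only. On simulated data over 14160 genes with 200 changed in the diet comparison, 58% of 2-fold and 82% of 4-fold changes were recovered, with 6 false calls. The simulation changed as many genes up as down, used the same spread in every group and drew each library independently. In the data 43.3% of genes were called and HFD 3 is not settled as separate. The shares recovered and the number of false calls therefore do not carry over to the data. Gene coordinates come from the GENCODE annotation of mm10, and promoter windows from RefSeq (GRCm38.p6), matched by symbol for 11010 of 14154 distinct symbols.

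The members and lists were chosen with earlier results of these data known. Genes were named by rule: the 15 genes with the smallest p in each direction (at least 2-fold, average log2 CPM of at least 1, no overlap), the 8 largest gains and losses of CPM, up to 4 genes with the smallest p of each list and 3 of each symbol group, genes near 0, the 6 smallest and 6 largest spreads, and Bckdk; other genes, including the holders of the ER stress element, were picked once their values were known. Some genes that the rule takes are not reported here. The alternatives comprised RLE, upper-quartile and total-count scaling, other filters, DESeq2 1.42.0, limma-voom (limma 3.58.1), 6 libraries only, a replicate block, unnamed loci kept, mitochondrial genes left out, a stricter threshold, each library left out, and a shorter promoter window. Replicate numbers were not taken to pair the mice in the main fit.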

Additional observations from a re-analysis of the deposited data

Results flagged for a closer look

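Loci without a gene name, which no comparison used, differed in HFD 3. In that library they took 1.02% of counts, against 4.75% to 5.80% in the other 5. It held at least 20 counts in 325 such loci that had at most 3 in every other library of the series, HFD 1 did so in 21, and ND 3 in 1. In turn 458 loci with at least 20 counts in each of the other 5 had none in HFD 3. The other 6 libraries of the series had 0 loci of their own by this measure. The cause was not tested.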

How the results depend on the processing

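With total-count scaling 5986 genes rose and 934 fell (2477 and 194 at least 2-fold), against 3215 and 2919 (1481 and 505) with TMM factors. At an adjusted p under 0.01, 3254 genes were called, 1940 higher and 1314 lower, and 323 fell at least 2-fold. Leaving out 1 library gave 4050 to 7325 called genes, 2326 to 3636 higher, 1724 to 3689 lower, 1097 to 1721 higher and 278 to 964 lower at least 2-fold; the lowest totals came without HFD 3 and without ND 2. The other alternatives stayed within 1.5 times of each count: DESeq2 called 6530 genes, limma-voom 6594, the 6 libraries alone 5220, and the fit with unnamed loci 5713. With the replicate number as a block 5614 genes were called, 2935 higher and 2679 lower. The correlations of same-numbered deviations were 0.02, 0.19 and 0.0077. ND 1 correlated best with HFD 1 and ND 2 with HFD 2, but ND 3 also correlated best with HFD 1 (0.18). With 3 libraries per group, these correlations cannot decide whether the numbers pair the mice. Of 203 named genes, none changed sign once called; 199 kept their side of the threshold with total-count scaling, 202 with DESeq2, 196 with limma-voom and 195 to 202 with 1 library left out. Of 45 list medians, 43 moved beyond the spread of the HFD libraries with total-count scaling and at most 11 under any other alternative. With windows of 150 bases before the start, the interferon element stood in 5.80% of all genes and 13% of those up at least 2-fold, and the ER stress element in 0.127% and 0.441%. Depth limits the scarcest decile of genes, in which 13.4% rose and 5.51% fell; a gene near 0 has only a lower bound.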
